A study of Caenorhabditis elegans with 24 samples.

Results

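The transcriptional change in *set-26* mutant worms relative to wild type was examined at the L4 larval stage of *C. elegans*. Members of the comparison were the *set-26* and N2 libraries of the RNA-seq table, 4 of its 8 libraries, in a series of 24 samples. Genes were kept if at least 1 of the 8 libraries had 20 or more reads, which left 14667 of the 46508 genes in the table. The study asked how SET-9 and SET-26, a pair of closely related chromatin proteins, act in longevity and in the germline. Its RNA-seq set holds N2 (the wild type laboratory strain), *set-26* (allele *tm2467*, a deletion that leads to an early stop), *set-9* (allele *rw5*) and the doubly mutant strain *set-9 set-26*, each with 2 libraries. All worms were grown at 20°C on NGM plates and collected as synchronized L4 animals. RNA was taken from whole worms and depleted of ribosomal RNA, so each value is a mixture of all tissues, and each single mutant is represented by 1 allele. The labels do not give the generation of the double mutant, whose values are therefore set beside those of *set-26*. The paper profiled double mutants of an earlier and a later generation, and describes a germline of altered morphology in the later generation. The level of *set-26* itself was not analysed here.

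SET-26 carries a PHD finger, a domain that binds methylated histone H3 at lysine 4, and a SET domain, the fold of histone methyltransferases. Lysine 4 trimethylation marks the starts of active genes, and worms without SET-26 are long-lived. The L4 stage is the last larval stage, when the epidermis builds the adult cuticle, the germline passes from sperm to oocytes, and the intestine prepares to make yolk. Genes of these programs change quickly with hours of development.

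Gene reads ran from 16363189 to 26187811 per library over the 8 libraries, and 3 reads, the floor used for folds, stood at 0.115 to 0.183 CPM, counts scaled to a common library size. Levels are given as CPM after scaling of library sizes by the trimmed mean of M values (TMM), always with replicate 1 before replicate 2. Across tested genes, log2(CPM + 1) of the 2 replicates correlated at r = 0.983 in N2 and r = 0.985 in *set-26*. The labels do not say that replicates came from separate cultures, so p-values measure only the spread between these libraries. The headers also give each library its own number, without stating whether it is a sequencing lane. Fold changes are log2 of *set-26* over N2, with a standard error (SE) and a p adjusted by the Benjamini-Hochberg method, from the quasi-likelihood test of edgeR, and a gene was called at an adjusted p under 0.05.

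By this test 143 genes rose in *set-26*, 0.975% of those tested, and 208 fell, 1.42% of those tested. The genes that rose had a median log2 fold change of 1.30, and those that fell had a median of −1.12. Genes that fell were detected with more reads, their median mean level, not corrected for gene length, being 77.4 CPM against 25.9 CPM for genes that rose and 10.2 CPM for all tested genes. Of the genes that rose, 138 were protein coding, and of those that fell, 204. With upper quartile scaling, 156 rose and 148 fell, so that 51.3% of calls were increases, against 40.7% after TMM scaling. The counts also depended on each library: 102 rose and 143 fell without N2 replicate 1, 25 and 17 without N2 replicate 2, 37 and 12 without *set-26* replicate 1, and 16 and 4 without *set-26* replicate 2. In each case fewer replicates entered the fit. Every called gene named here kept its direction, which followed from groups that did not overlap in any called gene.

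The functional groups among these genes were counted with lists of genes by pathway, complex or tissue. Of the genes that rose, 55 were in at least 1 list, and of those that fell, 76, against 2287 of all 14667 tested genes. Because the lists were chosen with earlier results of these data known, these counts are descriptions and no evidence of enrichment. Lists with members that fell covered the vacuolar proton pump, the respiratory chain, protein entry into the endoplasmic reticulum (ER), lysosomal enzymes, yolk proteins, and cuticle or matrix proteins of the epidermis. Lists with members that rose covered other cuticle collagens, C-type lectins, detoxification enzymes, ABC transporters, heat shock proteins and histones. Every member of these lists that was called kept its direction when any of the 4 libraries was left out. Because the groups of all called genes did not overlap, this outcome was fixed in advance and is no separate support.

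**Figure D1:**
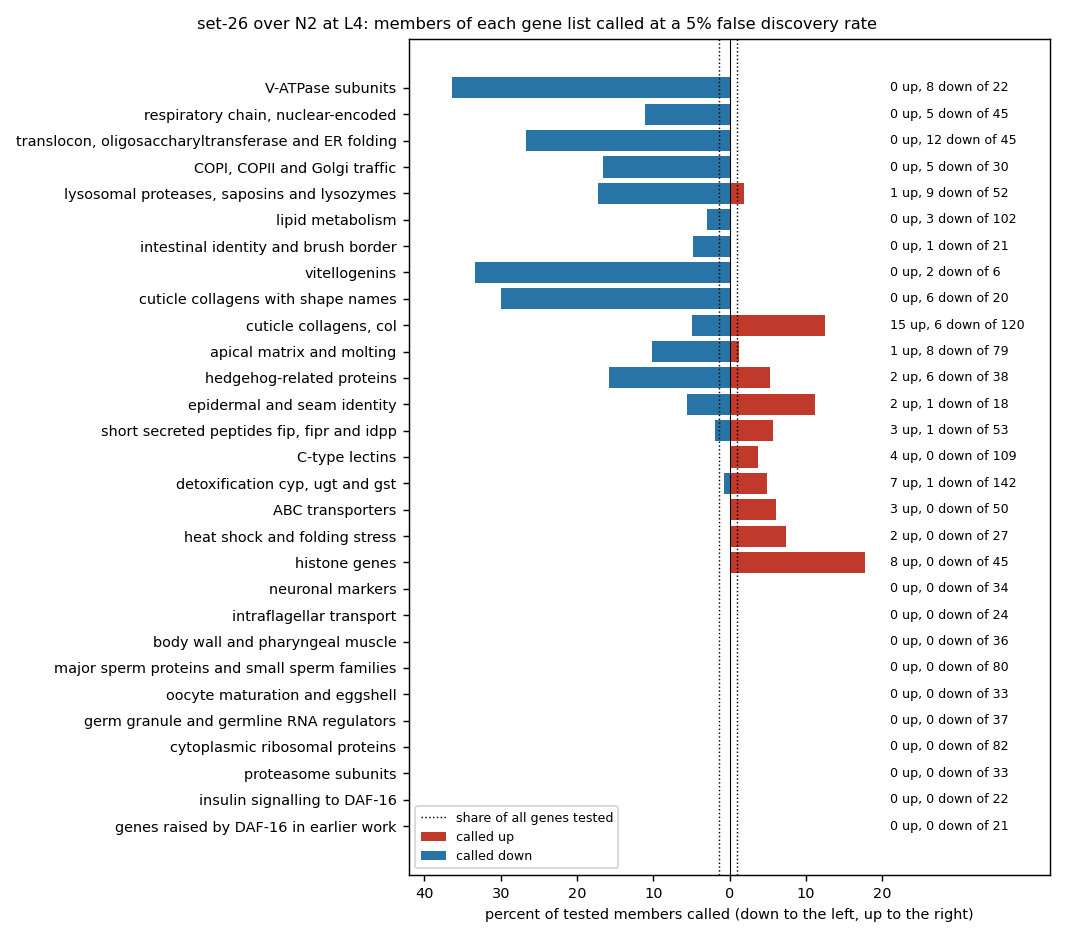
Percent of tested members of each gene list called in *set-26* against N2, with members that fell drawn to the left and members that rose to the right. Dotted lines mark the shares over all tested genes, 1.42% down and 0.975% up, and the V-ATPase row shows 8 of 22 subunits that fell and 0 that rose.

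A uniform shift was seen in the V-ATPase, the proton pump that acidifies lysosomes and other compartments and energises transport in intestine and excretory cell. Of its 22 subunit genes, 8 fell, 0 rose, and all 22 had a fold change below 0, with a median of −0.45 against 0.01 over all tested genes. In 20 of 22 both *set-26* libraries were lower than both N2 libraries, a pattern seen in 22.9% of all tested genes. Added over the subunits, the level was 9738 and 9850 CPM in N2 and 6893 and 6982 CPM in *set-26*, so the groups did not overlap. It was 10303 and 10376 CPM in *set-9*, above N2, and 6071 and 5864 CPM in the double mutant, the lowest of the 4 genotypes.

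The subunit *vha-12*, the B subunit of the catalytic head, stood at 1207 and 1180 CPM in N2, 789 and 849 CPM in *set-26*, 1221 and 1242 CPM in *set-9* and 664 and 658 CPM in the double mutant. N2 and *set-9* were high, *set-26* was lower and the double mutant was lowest, and the log2 fold change in *set-26* was −0.54 (SE 0.09, edgeR adjusted p = 0.0274). The intestinal a subunit *vha-6*, which sits on the gut-lumen side, had 317 and 326 CPM in N2 and 211 and 231 CPM in *set-26* (log2 fold change −0.54, edgeR adjusted p = 0.0459). The stalk subunit *vha-10* (G) fell by 0.58, *vha-11* (C) by 0.54, and *vha-16*, of the membrane part, by 0.54 on the log2 scale. The remaining 3 that fell were *vha-2*, *vha-15* and *vha-20*, each with a log2 fold change of −0.50, whereas *vha-8* (E) had −0.76 but an adjusted p of 0.0518 in edgeR and was not called. The calls lay near the threshold: 2 subunits were called with upper quartile scaling, and 0 were called by edgeR when N2 replicate 1, N2 replicate 2, *set-26* replicate 1 or *set-26* replicate 2 was left out, although all 8 kept an unadjusted p under 0.05. Tested directly against *set-9*, 7 of the 22 were lower, with *vha-12* at a log2 difference of −0.59 (edgeR adjusted p = 0.0394). In that contrast 0.443% of tested genes were higher in *set-26* and 0.252% lower. In edgeR none of the 7 was called when *set-26* replicate 1 or 2 or *set-9* replicate 1 or 2 was left out, and all 7 kept their direction and an unadjusted p under 0.05.

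The nuclear-encoded respiratory chain, the inner-membrane complexes of the mitochondrion that make ATP, was also lower. Of 45 genes, 5 fell, 0 rose, and the median log2 fold change was −0.29. In 31 of the 45 both *set-26* libraries were below both N2 libraries, a pattern seen in 22.9% of all tested genes. Summed levels were 20611 and 21129 CPM in N2, 15027 and 14819 CPM in *set-26*, 21934 and 22587 CPM in *set-9*, and 12118 and 12749 CPM in the double mutant. The order of the genotypes was that of the V-ATPase.

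Of the genes that fell, 3 encode subunits of ATP synthase. The α subunit gene *atp-1* had 6425 and 6431 CPM in N2, 4449 and 4067 CPM in *set-26*, 7172 and 6976 CPM in *set-9*, and 3240 and 3372 CPM in the double mutant. The *set-26* libraries lay below N2 and *set-9* and above the double mutant, with a log2 fold change of −0.59 (SE 0.08, edgeR adjusted p = 0.0161) against N2 and −0.73 (edgeR adjusted p = 0.0188) against *set-9*. The β subunit gene *atp-2* went from 3611 and 3589 CPM to 2292 and 2357 CPM, and *atp-3* had a log2 fold change of −0.68. In complex III, the core protein gene *ucr-1* went from 461 and 454 CPM to 270 and 275 CPM, and the Rieske iron-sulfur protein gene *isp-1*, in which a known mutation lengthens life, went from 524 and 451 CPM to 314 and 265 CPM. Each of these 2 had a log2 fold change of −0.75, with edgeR adjusted p of 0.0234 for *ucr-1* and 0.0312 for *isp-1*. Directly against *set-9*, *atp-1*, *atp-2* and *ucr-1* were lower, 3 of 45. Of the 5, 1 was still called without N2 replicate 1, and 0 by edgeR without N2 replicate 2, *set-26* replicate 1 or *set-26* replicate 2.

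**Figure D2:**
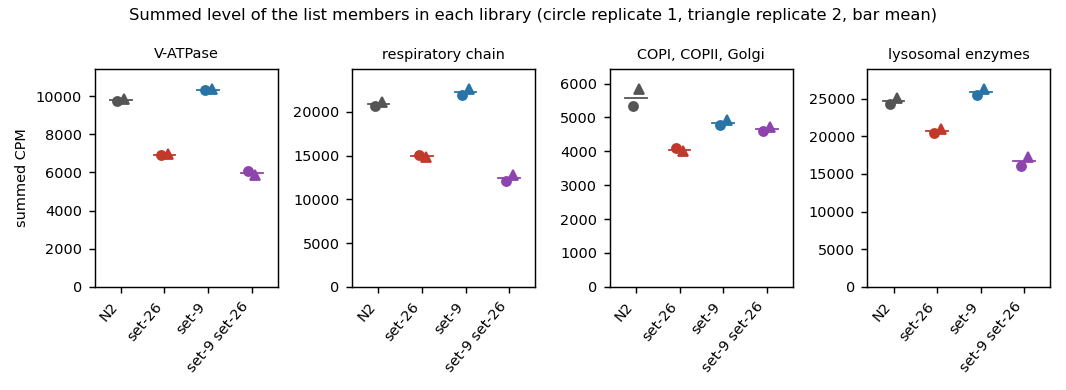
Summed level in CPM of the members of 4 lists in each library of the 4 genotypes, with circles for replicate 1, triangles for replicate 2 and a bar for the mean. In the V-ATPase panel the *set-26* libraries sit at 6893 and 6982 CPM, below N2 at 9738 and 9850 CPM and *set-9* at 10303 and 10376 CPM.

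Genes for the secretory route were lower too. The lists for it were drawn up after the values had been seen, so their counts are descriptions. Of 45 genes for the translocon (the channel into the ER), the oligosaccharyltransferase that attaches sugars, and ER folding, 12 fell and 0 rose, with a median log2 fold change of −0.36. Of 30 genes for COPI and COPII vesicle coats and Golgi traffic, 5 fell and 0 rose, with a median of −0.46. In 27 of the 30 both *set-26* libraries were below both N2 libraries, against 22.9% of all tested genes. The summed level of the second list was 5337 and 5838 CPM in N2, 4095 and 4001 CPM in *set-26*, and 4773 and 4916 CPM in *set-9*.

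The largest change among the ER genes that fell was in *fkb-5*, a peptidyl-prolyl isomerase, with 315 and 421 CPM in N2 and 163 and 188 CPM in *set-26* (log2 fold change −1.07, SE 0.17, edgeR adjusted p = 0.0279). The translocon-associated protein gene *trap-3* went from 1746 and 1737 CPM to 1029 and 834 CPM (log2 fold change −0.90, edgeR adjusted p = 0.0242). The channel itself, *sec-61.A*, went from 2585 and 3010 CPM to 1909 and 1651 CPM, a log2 fold change of −0.65. The oligosaccharyltransferase members *stt-3* (its catalytic subunit), *dad-1* and *ribo-1* fell by 0.73, 0.69 and 0.63. In vesicle traffic, the cargo receptor gene *ile-1* had 232 and 261 CPM in N2 and 144 and 131 CPM in *set-26* (log2 fold change −0.84, edgeR adjusted p = 0.0145), and the coatomer genes *cope-1* and *copb-1* fell by 0.71 and 0.63. By contrast *hsp-4*, the BiP chaperone that the unfolded protein response induces, had 228 and 247 CPM in N2 and 267 and 268 CPM in *set-26* (log2 fold change 0.17, edgeR adjusted p = 0.43). Directly against *set-9*, *trap-3* had a difference of −0.70 (edgeR adjusted p = 0.0721) and *ile-1* of −0.45 (edgeR adjusted p = 0.114). Of the 12 and the 5, 5 and 1 were still called without N2 replicate 1, and 0 in both lists by edgeR without N2 replicate 2, *set-26* replicate 1 or *set-26* replicate 2.

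Among 52 lysosomal and digestive enzymes, which are made mainly by the intestine, 9 fell and 1 rose. The cathepsin B-like protease gene *cpr-1* had 578 and 701 CPM in N2, 288 and 259 CPM in *set-26*, 716 and 852 CPM in *set-9*, and 172 and 195 CPM in the double mutant. Both genotypes with the *set-26* mutation were low and both without it high, and the log2 fold change was −1.23 (SE 0.14, edgeR adjusted p = 0.0125) against N2 and −1.52 (edgeR adjusted p = 0.013) against *set-9*. The invertebrate-type lysozyme gene *ilys-5* was also low in both genotypes with the mutation, with 752 and 818 CPM in N2, 328 and 345 CPM in *set-26*, 862 and 826 CPM in *set-9*, and 349 and 385 CPM in the double mutant. Its log2 fold change was −1.22 (SE 0.10, edgeR adjusted p = 0.00513) against N2 and −1.33 (edgeR adjusted p = 0.00936) against *set-9*.

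Other members differed in how *set-9* stood. The aspartyl protease gene *asp-12* went from 72.6 and 73.1 CPM in N2 to 29.5 and 34.1 CPM in *set-26*, and *set-9* was as low, at 37 and 30.6 CPM (difference from *set-9* −0.09, edgeR adjusted p = 0.822). The other aspartyl proteases that fell were *asp-13* (−1.03) and *asp-14* (−0.88). The cathepsin B-like gene *cpr-6* (−1.12), the lysozyme gene *lys-4* (−0.69) and the saposin-like gene *spp-4* (−0.92) also fell. The member that rose, *asp-8*, had 83.5 and 79.9 CPM in N2, 146 and 220 CPM in *set-26* and 44.8 and 35.7 CPM in *set-9*. It rose by 1.16 on the log2 scale (edgeR adjusted p = 0.0312) over N2 and stood 2.18 above *set-9* (edgeR adjusted p = 0.013). In direct comparison with *set-9*, 6 members were lower and 1 higher. Of the 9 that fell, 6 were still called without N2 replicate 1, and 1 in each case without N2 replicate 2, *set-26* replicate 1 or *set-26* replicate 2.

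Markers of the intestine as a whole had smaller differences, mostly in the same direction. Of 21 intestinal identity and brush border genes 1 was called, *vha-6*, with a median over the list of −0.20 and 16 fold changes below 0. In 13 of the 21 both *set-26* libraries were below both N2 libraries, against 22.9% of all tested genes. The GATA factor gene *elt-2*, which defines the intestine, had 36.8 and 35.2 CPM in N2 and 32.7 and 30.1 CPM in *set-26* (log2 fold change −0.20, edgeR adjusted p = 0.532), and the gut esterase gene *ges-1* had 48.5 and 53.5 CPM against 52.2 and 58.6 CPM. In whole worms, fewer cells of a type and less RNA per cell cannot be told apart. In fat metabolism, 3 of 102 genes fell and 0 rose. The Δ9 desaturase gene *fat-7*, which makes oleic acid, went from 192 and 188 CPM to 110 and 105 CPM (log2 fold change −0.82, edgeR adjusted p = 0.0375), with *set-9* at 106 and 86.1 CPM. Its paralog *fat-6*, close in sequence, had −0.66 (edgeR adjusted p = 0.0584), *fat-5* had 0.26, and the peroxisomal oxidase gene *acox-1.4* fell by 0.69. Of the 3 that fell, 1 was still called without N2 replicate 1 and 0 by edgeR without each of the others.

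Vitellogenins, the yolk proteins that the intestine makes for oocytes as worms become adult, had a median log2 fold change of −4.14, the lowest of the lists. All 6 genes had lower levels in both *set-26* libraries than in either N2 library, a pattern seen in 22.9% of all tested genes. Of the 6, 2 passed the test. The promoters of those 2 are shown because the genes were called. The windows of all 6 vitellogenins hold elements known to act on yolk genes. Each window runs from 250 bases before to 50 bases after the gene start in WBcel235, the *vit-1* window at chrX:7727639-7727938 on the plus strand and the *vit-4* window at chrX:3563916-3564215 on the minus strand. Capitals mark TGTCAAT (vitellogenin promoter element 1), CTGATAA (element 2, a GATA-type site) and CTTATCA (the DAF-16-associated element), each searched on both strands. The last of these overlaps the reverse of the second by all but its first base.
vit-1: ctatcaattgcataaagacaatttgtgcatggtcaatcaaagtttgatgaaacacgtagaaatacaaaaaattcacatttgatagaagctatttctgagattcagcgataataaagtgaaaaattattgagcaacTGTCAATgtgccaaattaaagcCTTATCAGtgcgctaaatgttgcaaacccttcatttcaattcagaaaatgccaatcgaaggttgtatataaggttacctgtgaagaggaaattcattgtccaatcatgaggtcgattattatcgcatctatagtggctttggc
vit-4: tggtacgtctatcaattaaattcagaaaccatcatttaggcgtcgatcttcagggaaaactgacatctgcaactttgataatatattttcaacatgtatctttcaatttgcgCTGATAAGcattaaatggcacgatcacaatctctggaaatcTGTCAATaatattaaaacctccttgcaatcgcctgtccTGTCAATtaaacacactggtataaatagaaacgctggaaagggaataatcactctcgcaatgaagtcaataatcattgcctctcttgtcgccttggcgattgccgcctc

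TGTCAAT was in the windows of 6 of 6 vitellogenins and in 5.75% of windows over all tested genes, CTGATAA in 5 of 6 and 8.17%, and CTTATCA in 4 of 6 and 9.63%. Elements 1 and 2 are named for vitellogenin promoters, so their presence here is no separate result. These matches are a description of the windows. The level of *vit-1* was 911 and 507 CPM in N2, 94.9 and 73.5 CPM in *set-26*, 373 and 258 CPM in *set-9*, and 429 and 307 CPM in the double mutant. The *set-26* libraries were the lowest, with a log2 fold change of −3.07 (SE 0.34, edgeR adjusted p = 0.0108). That of *vit-4* was 418 and 181 CPM in N2 and 15 and 3.35 CPM in *set-26*, so replicates differed several-fold within each genotype, and its log2 fold change was −5.02 (SE 0.93, edgeR adjusted p = 0.0397). For *vit-6* the levels were 5840 and 2471 CPM in N2 and 529 and 133 CPM in *set-26* (log2 fold change −3.65, edgeR adjusted p = 0.0584). Of the 2 called, 1 remained without N2 replicate 1 and 1 without N2 replicate 2, and 0 in edgeR without *set-26* replicate 1 or *set-26* replicate 2. Directly against *set-9*, *vit-1* had a difference of −1.91 (edgeR adjusted p = 0.0517).

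The vitellogenins also differed between replicates, by a median of 1.22 on the log2 scale in N2 and 2.08 in *set-26*, replicate 1 being the higher in both, against a median absolute difference of 0.22 in N2 over all genes. Other genes whose levels change around the end of L4 also differed between the N2 replicates. Those for oocyte maturation and eggshell had 3640 and 2068 CPM in N2 in sum, with a median log2 fold change of −0.57 in *set-26* and 0 of 33 called. The adult collagen gene *col-19* had 1008 and 320 CPM in N2 and 60.2 and 8.55 CPM in *set-26* (log2 fold change −4.27, edgeR adjusted p = 0.0995). The sums of sperm protein genes were 1619 and 766 CPM in N2 with a median log2 fold change of −0.16 and 0 of 80 called by edgeR. The part of developmental age within L4 in these differences was not tested.

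**Figure D3:**
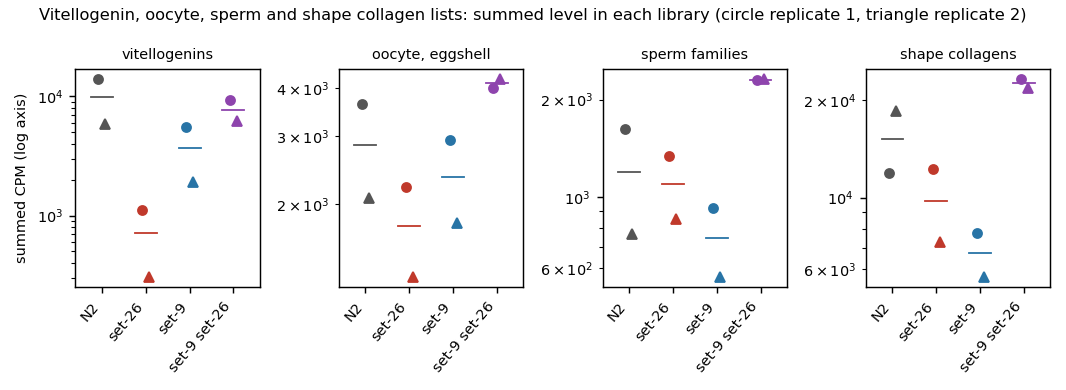
Summed level in CPM, on a log axis, of 4 lists of genes that change around the end of L4, with circles for replicate 1, triangles for replicate 2 and a bar for the mean. Vitellogenins stood at 13936 and 5864 CPM in N2 and 1112 and 306 CPM in *set-26*, and in the shape collagens N2 replicate 1, at 11878 CPM, lay below *set-26* replicate 1, at 12234 CPM.

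The epidermis gave changes in both directions. Cuticle collagens form the bulk of the worm's exoskeleton and are made in waves, different members at different times of each molting cycle. Of 120 tested *col* genes (156 in the table), 15 rose and 6 fell, with a median log2 fold change of 0.18. This balance depended on the test, since 29 rose and 32 fell in DESeq2's Wald test and 25 and 35 in edgeR's exact test, and 19 genes were higher and 45 lower by at least 1 on the log2 scale whether called or not. The 3 with the largest increases were *col-54*, *col-41* and *col-90*. Levels of *col-41* were 177 and 156 CPM in N2, 1284 and 838 CPM in *set-26*, 461 and 338 CPM in *set-9*, and 57.7 and 67.1 CPM in the double mutant. The 4 genotypes did not overlap, with *set-26* the highest and the double mutant the lowest, and the log2 fold change was 2.67 (SE 0.24, edgeR adjusted p = 0.00551).

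The gene *col-54* had 7.88 and 6.98 CPM in N2, 59.7 and 43.8 CPM in *set-26*, 19.3 and 14.5 CPM in *set-9* and 7.16 and 7.34 CPM in the double mutant, a log2 fold change of 2.80 (edgeR adjusted p = 0.00429) in *set-26* and of −2.84 from *set-26* to the double mutant. That of *col-90* was 2.33, from 64.5 and 68 CPM to 393 and 275 CPM. These 3 were also higher than in *set-9*, by 1.41 for *col-41*, 1.61 for *col-54* and 1.58 for *col-90*. The genes *col-107* and *col-10* rose by 1.42 and 1.02, and *col-10* stood at 2904 and 2423 CPM in N2, 5169 and 5638 CPM in *set-26* and 5801 and 6587 CPM in *set-9*. Of the 6 that fell, *col-143*, *col-8* and *col-179* went by over 5 on the log2 scale. For *col-143* the levels were 97.2 and 39.6 CPM in N2, 1.75 and 0.487 CPM in *set-26*, 11 and 2.02 CPM in *set-9*, and 109 and 48.7 CPM in the double mutant (log2 fold change −5.91, SE 0.97, edgeR adjusted p = 0.0291). N2 and the double mutant overlapped, and both replicates of *set-26* were the lowest. Another gene overlaps exons of each of these 3. Of the 15, 12, 5, 6 and 4 were still called without N2 replicate 1, N2 replicate 2, *set-26* replicate 1 and *set-26* replicate 2, and of the 6, 2 without N2 replicate 1 and 0 by edgeR without each of the others.

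**Figure D4:**
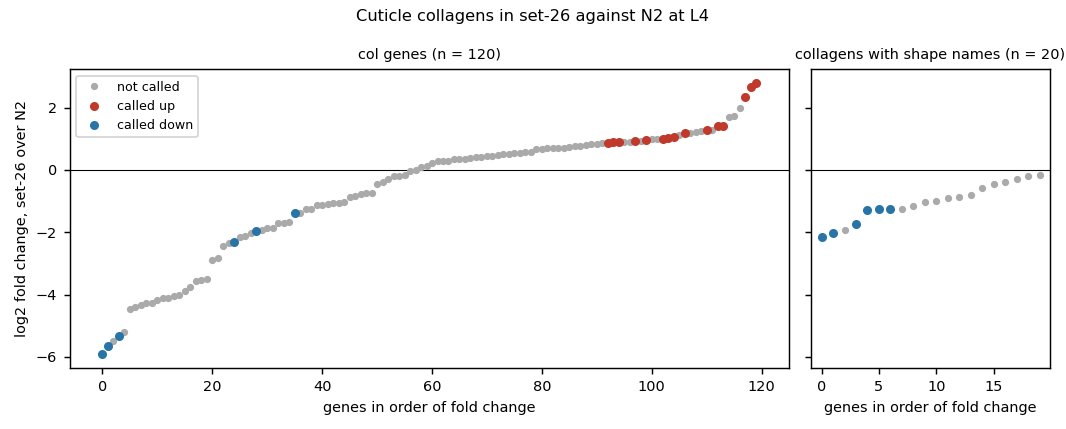
Log2 fold change of *set-26* over N2 for each of 120 *col* genes and 20 collagen genes named for a body shape, in order of fold change, with called genes in colour. Among *col* genes 15 rose and 6 fell, and among the shape genes all 20 lie below 0, from −2.16 to −0.16.

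Collagens named for the body shape of their mutants (dumpy, roller, blister, long) went in a single direction. Of 20, 6 fell and 0 rose, with a median of −1.01 and every fold change below 0. The gene *bli-2*, needed for the struts of the adult cuticle, had 225 and 391 CPM in N2, 79.4 and 58.1 CPM in *set-26*, 84.1 and 74.1 CPM in *set-9* and 325 and 306 CPM in the double mutant (log2 fold change −2.16, SE 0.27, edgeR adjusted p = 0.0145). The single mutants were low together and the double mutant was within the N2 range. Its partner *bli-1* fell by 2.03, the body length gene *lon-3* by 1.73, *dpy-2* by 1.26, *dpy-8* by 1.27 and *dpy-10* by 1.25. The furrow collagens *dpy-2*, *dpy-7*, *dpy-8* and *dpy-10* act together, and *dpy-7* had −1.03 (edgeR adjusted p = 0.074). The list had a median of −1.22 in *set-9*, in which 2 members fell, and *bli-2* differed between *set-26* and *set-9* by −0.20 (edgeR adjusted p = 0.779). In N2 the replicates of this list differed by a median of −0.54 on the log2 scale, replicate 1 being the lower. Of the 6, 5 were still called without N2 replicate 1, 2 without N2 replicate 2, and 0 by edgeR without *set-26* replicate 1 or *set-26* replicate 2. When reads under landmark entries were added to their genes, *dpy-10* was not called.

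Of 79 matrix and molting genes outside the collagens, 8 fell and 1 rose, but the list was balanced, with a median log2 fold change of −0.04, 38 genes above 0 and 41 below. In edgeR's exact test 14 fell and 8 rose. The astacin protease gene *nas-37*, which digests old cuticle at the molt, had 133 and 165 CPM in N2, 62.7 and 50.6 CPM in *set-26* and 46.2 and 53.4 CPM in *set-9* (log2 fold change −1.4, SE 0.16, edgeR adjusted p = 0.0108). The protease inhibitor-like gene *mlt-11* went from 6932 and 8871 CPM to 2947 and 3513 CPM, a log2 fold change of −1.29, and the lipocalin gene *lpr-3*, the zona pellucida domain gene *noah-1* and the cuticlin-like gene *cutl-18* fell by 1.11, 1.13 and 1.24. The peroxidase gene *mlt-7*, which crosslinks cuticle proteins, rose from 59.3 and 43.9 CPM to 110.5 and 89.6 CPM (log2 fold change 0.96, edgeR adjusted p = 0.0457). Of the 8, 7 were still called without N2 replicate 1, 1 without *set-26* replicate 1, and 0 by edgeR without N2 replicate 2 or *set-26* replicate 2.

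Hedgehog-related proteins, a nematode family secreted largely by the epidermis, had 6 of 38 lower and 2 higher. The warthog gene *wrt-2* had 311 and 421 CPM in N2 and 132 and 106 CPM in *set-26*, with 101 and 116 CPM in *set-9* and 264 and 256 CPM in the double mutant. Here too the single mutants formed a low pair (log2 fold change −1.62, SE 0.18, edgeR adjusted p = 0.0108 in *set-26*). Of the others, *grl-10* fell by 1.65, *qua-1* by 1.52, *grl-14* by 1.18 and *wrt-10* by 1.12. The groundhog gene *grd-13* rose, from 85.7 and 69.2 CPM to 215 and 222 CPM, and stood at 202 and 196 CPM in *set-9* but at 20.8 and 19 CPM in the double mutant. Its log2 fold change was 1.5 (SE 0.13, edgeR adjusted p = 0.00513) in *set-26*, and the double mutant lay 3.46 below *set-26*. Its relative *grd-10* rose by 0.73, the double mutant again being the lowest. Of the 6, 3, 1, 2 and 0 were still called by edgeR without N2 replicate 1, N2 replicate 2, *set-26* replicate 1 and *set-26* replicate 2.

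Of 16 regulators of molting and of developmental timing, 1 was called. The nuclear receptor gene *nhr-25*, which is needed for molting and epidermal development, had 21.9 and 23.8 CPM in N2, 66.5 and 53.2 CPM in *set-26*, 50.6 and 50.7 CPM in *set-9*, and 28.1 and 26.0 CPM in the double mutant. Both single mutants were above both other genotypes, and the log2 fold change in *set-26* was 1.39 (SE 0.14, edgeR adjusted p = 0.00762). The receptor gene *nhr-23*, which acts with it at the molt, had −0.10, and *lin-29*, the factor for the change from larval to adult epidermis, had −0.35, neither called. The nuclear receptor motif AGGTCA was searched on both strands in the same 300-base windows of tested genes. It was in 41 of 208 windows of genes that fell (19.7%), in 12 of 142 windows of genes that rose (8.45%) and in 8.48% of all windows. Within genes that fell, the share was 26.9% (7 of 26) in the cuticle, matrix and hedgehog lists and 18.7% (34 of 182) outside them. Among all tested genes in those lists it was 15.2% (39 of 257). These shares were not tested.

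Large increases with small errors were found in genes of other kinds. The P-type cation ATPase gene *catp-3* had 15.2 and 14.3 CPM in N2, 100 and 117 CPM in *set-26*, 65.4 and 60.7 CPM in *set-9* and 61.6 and 56.3 CPM in the double mutant. All 3 mutants were above N2 and *set-26* was the highest (log2 fold change 2.87, SE 0.13, edgeR adjusted p = 0.000463), 0.78 above *set-9* (edgeR adjusted p = 0.0457). The β-tubulin gene *tbb-6* followed the *set-26* mutation instead, with 4.14 and 4.71 CPM in N2, 34 and 38.4 CPM in *set-26*, 5.22 and 5.99 CPM in *set-9* and 40.6 and 36.5 CPM in the double mutant (log2 fold change 3.04, SE 0.16, edgeR adjusted p = 0.000839 against N2 and 2.69, adjusted p = 0.00381 against *set-9*).

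The claudin-like gene *clc-11*, of a family of membrane proteins at cell contacts, had 1.85 and 1.19 CPM in N2, 12.2 and 14.4 CPM in *set-26*, 1.5 and 1.11 CPM in *set-9* and 11.2 and 11.3 CPM in the double mutant. It too was high wherever *set-26* was mutated, by 3.1 over N2 (edgeR adjusted p = 0.00546). Another gene, *srlf-34*, which overlaps *gcy-5*, went from 10.1 and 12.9 CPM to 85.4 and 111 CPM (log2 fold change 3.1, edgeR adjusted p = 0.00406). In the opposite direction, the stress granule RNA-binding protein gene *tiar-2* had 21.7 and 19.3 CPM in N2, 2.95 and 2.43 CPM in *set-26*, 3.78 and 3.39 CPM in *set-9* and 15.3 and 14.2 CPM in the double mutant. The single mutants were low together (log2 fold change −2.92, SE 0.19, edgeR adjusted p = 0.00228 in *set-26*), and the double mutant was 2.45 above *set-26*. All these 5 genes were called with each of the 4 libraries left out in turn, as were 11 others.

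**Figure D5:**
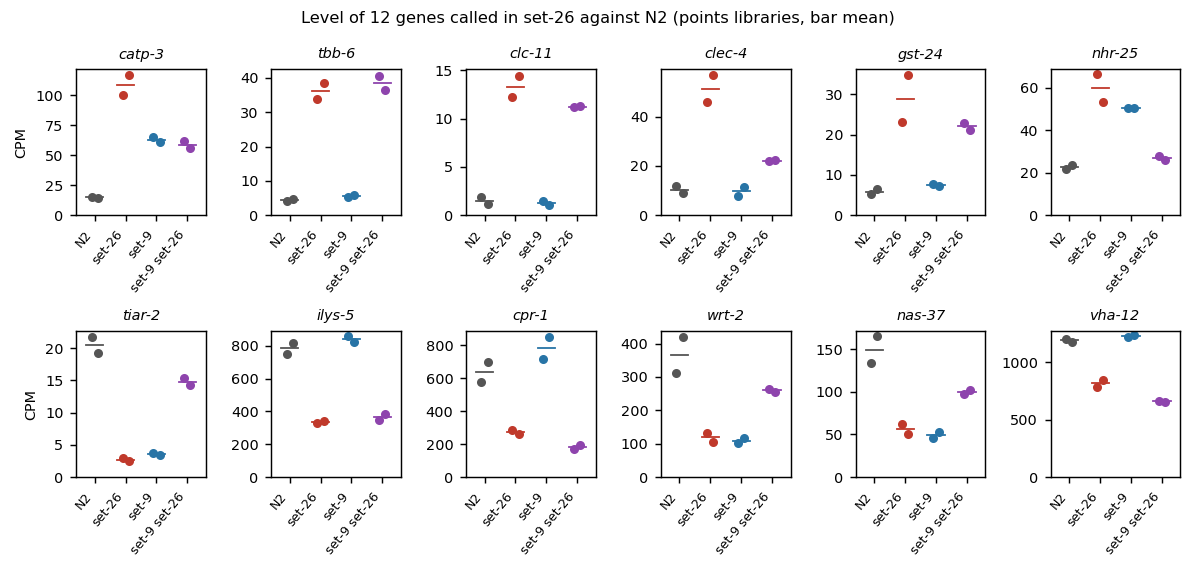
Level in CPM of 12 called genes in each library of the 4 genotypes, with points for libraries and bars for means. For *tbb-6* the *set-26* and double mutant libraries lie between 34 and 40.6 CPM and the N2 and *set-9* libraries between 4.14 and 5.99 CPM, whereas for *nhr-25* the single mutants lie between 50.6 and 66.5 CPM.

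A count was made of genes with 0 reads in both libraries of N2 or *set-26* and 20 or more in both of the other. Of these, 5 had none in N2 and 5 had none in *set-26*. The transporter gene *pgp-8* had 0 and 0 reads in N2 and 443 and 509 reads in *set-26*, at least 145-fold higher by a floor of 3 reads per library, with 67 and 0 reads in *set-9* and 424 and 419 reads in the double mutant. The gene *D1014.6* had 334 and 374 reads in N2 and 0 and 0 reads in *set-26*, at least 76.8-fold lower. Its neighbour *D1014.7* went from 13.5 and 29.8 CPM to 0.450 and 0.433 CPM (log2 fold change −5.59, edgeR adjusted p = 0.0145). Within N2 and *set-26*, such genes reached the minimum of 20 reads only in the genotype in which they were high. Other genotypes could also reach it, as did the double mutant for *pgp-8* and *set-9* for *D1014.6* (29 and 25 reads).

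Several families of secreted or membrane proteins had members that rose. Of 109 C-type lectins, sugar-binding proteins often made by the gut and induced by infection, 4 rose and 0 fell with a median of 0.00. The lectin gene *clec-4* had 11.7 and 9.13 CPM in N2, 45.8 and 56.8 CPM in *set-26* and 8.0 and 11.4 CPM in *set-9* (log2 fold change 2.30, SE 0.21, edgeR adjusted p = 0.00673 against N2 and 2.41, adjusted p = 0.0128 against *set-9*). The *set-26* libraries stood above all others. The others were *clec-265* (1.68), *clec-67* (1.31) and *clec-66* (0.83). In direct comparison with *set-9* the 4 higher members were *clec-4*, *clec-265*, *clec-66* and *clec-17*, of which *clec-17* had 1.91 against N2 (edgeR adjusted p = 0.0531). Of the 4, 2, 1, 2 and 0 were still called by edgeR without N2 replicate 1, N2 replicate 2, *set-26* replicate 1 and *set-26* replicate 2.

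Of 142 cytochrome P450, glucuronosyltransferase and glutathione transferase genes, the enzymes that modify foreign compounds, 7 rose and 1 fell, with a median of 0.04. The transferase gene *gst-24* went from 5.2 and 6.52 CPM in N2 to 23.2 and 34.7 CPM in *set-26*, with 7.83 and 7.23 CPM in *set-9* (log2 fold change 2.31, SE 0.23, edgeR adjusted p = 0.00747). The *set-26* libraries did not overlap those of *set-9*, and the difference was 1.94 (edgeR adjusted p = 0.0236). The glucuronosyltransferase genes *ugt-19* and *ugt-62* rose by 1.79 and 1.22, and the P450 genes *cyp-14A4*, *cyp-14A1*, *cyp-33C8* and *cyp-14A5* by 3.11, 2.59, 2.52 and 1.43. The exception, *cyp-35C1*, went from 50.4 and 79.4 CPM to 30.2 and 32.2 CPM (log2 fold change −1.05, edgeR adjusted p = 0.0428). Of these genes, 6 were higher than in *set-9*, all but *cyp-14A5* among those that rose. When only the *set-26* and *set-9* libraries were fitted, edgeR called 0 of these 6, although all 6 had an unadjusted p under 0.05. Of the 7, 5, 2, 4 and 1 were still called without N2 replicate 1, N2 replicate 2, *set-26* replicate 1 and *set-26* replicate 2. Of 50 ABC transporters, which pump compounds out of cells, 3 rose and 0 fell: *pgp-8*, *pgp-9* (1.46) and *pgp-14* (0.95). Of these, 1 was still called without N2 replicate 1, 1 without *set-26* replicate 1, and 0 by edgeR without N2 replicate 2 or *set-26* replicate 2.

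In stress genes, 2 of 27 heat shock and folding genes rose. The small heat shock protein gene *hsp-16.1*, a near copy of others in its cluster, had 1.14 and 1.76 CPM in N2 and 10.9 and 11.2 CPM in *set-26*, with 2.22 and 2.74 CPM in *set-9* (log2 fold change 2.95, SE 0.38, edgeR adjusted p = 0.0145). The Hsp70 gene *F44E5.4* rose by 2.21 from levels of 0.630 and 1.08 CPM. Neither was called when any 1 of the 4 libraries was left out.

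Of 45 tested histone genes (81 in the table), 8 rose and 0 fell, and 38 had a fold change above 0 and 7 below. The gene *his-32* had 9.73 and 9.42 CPM in N2 and 26.0 and 26.3 CPM in *set-26* (log2 fold change 1.45, SE 0.18, edgeR adjusted p = 0.0145). For *his-1* the levels were 28.3 and 28.4 CPM in N2, 51.5 and 61.3 CPM in *set-26*, 36.2 and 36.1 CPM in *set-9* and 137 and 160 CPM in the double mutant, a rise of 0.99 in *set-26*. Its order was N2, *set-9*, *set-26* and the double mutant, with no overlap. Others were *his-31* (1.38), *his-2* (0.93) and *his-6* (0.92). Core histones are encoded by near-identical copies in clusters, so reads cannot be assigned to a copy with certainty, and messages without a poly(A) tail were kept by ribosomal depletion. Of the 8, 2 were still called without N2 replicate 1, 1 without *set-26* replicate 1 and 0 by edgeR without N2 replicate 2 or *set-26* replicate 2.

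Short secreted peptides of the *fip*, *fipr* and *idpp* families, many of them fungus-induced, had a median of 0.78. In 31 of 53 both *set-26* libraries were above both N2 libraries, against 23.1% of all tested genes, while 3 rose and 1 fell. The largest of these was *idpp-12*, with 3.51 and 2.95 CPM in N2 and 20.3 and 13.2 CPM in *set-26* (log2 fold change 2.37, edgeR adjusted p = 0.0184). The other genes that rose were *idpc-7* (1.82) and *fipr-8* (1.25), and *idpp-1* fell by 1.22. None of the 3 was called without N2 replicate 2, *set-26* replicate 1 or *set-26* replicate 2, and 1 was without N2 replicate 1.

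Of the insulin pathway that ends at DAF-16, the FOXO factor through which many longevity mutants act, 0 of 22 genes were called. Over all tested genes 0.975% rose and 1.42% fell, so a list of this size would hold few or no calls. The receptor gene *daf-2* had 87 and 90.4 CPM in N2 and 82.0 and 91.1 CPM in *set-26*, and *daf-16* had 325 and 378 CPM against 342 and 352 CPM, with overlapping libraries in both. None of 21 genes that DAF-16 is known to raise was called, where the same shares apply. In 6 of the 21 both *set-26* libraries were above both N2 libraries and in 7 below, against 23.1% and 22.9% of all tested genes. The mitochondrial superoxide dismutase gene *sod-3* had 0.945 and 0.964 CPM in N2 and 2.50 and 1.89 CPM in *set-26* (log2 fold change 1.2, edgeR adjusted p = 0.148). The metallothionein gene *mtl-1* had −1.13 (edgeR adjusted p = 0.176). Of 8 genes that it lowers, *dod-22* rose (log2 fold change 1.86, edgeR adjusted p = 0.0312). The other members were not called, the median was −0.20, and 3 had a log2 fold change of −1 or lower, the vitellogenin gene *vit-2* (−3.80) among them. The DAF-16 binding element GTAAACA was in 5.63% of windows of genes that rose, 2.88% of those that fell and 5.0% of all. The DAF-16-associated element CTTATCA was in 14.8% of windows of genes that rose, 14.9% of those that fell and 9.63% of all. These shares were not tested.

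Lists for other tissues and processes had no called member. They comprised neurons (34 genes), intraflagellar transport (24), body wall and pharyngeal muscle (36), sperm (80 and 34), oocyte and eggshell (33), germ granules (37), meiotic chromosomes (34), Argonautes (48), cytoplasmic ribosomal proteins (82), proteasome (33) and factors for H3K4 methylation (20). At the shares called over all tested genes, 0.975% up and 1.42% down, lists of this size would hold few or no calls. Some were shifted all the same, with a median log2 fold change of 0.49 for intraflagellar transport and −0.57 for oocyte and eggshell. Over all 14667 tested genes, 1034 were higher and 1359 lower at an unadjusted p under 0.05 in edgeR's quasi-likelihood test. In all 711 genes of the 20 lists with 0 calls, the counts were 34 and 22 at the same p. The Wald test of DESeq2 called 6 and 5 of them, edgeR's exact test 7 and 5, and its likelihood ratio test 9 and 6. The paralog *set-9*, in the H3K4 list, had 90.4 and 91.4 CPM in N2 and 115 and 107 CPM in *set-26* (log2 fold change 0.29, edgeR adjusted p = 0.248).

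By position, 1.75% of tested genes on chromosome V and 1.42% on X rose, against 0.336% on chromosome I, and 2.54% of genes on X fell, against 1.14% to 1.39% on the autosomes. Some called genes were next to each other, with 14 neighbouring pairs of genes that rose, made of 25 genes, and 8 pairs that fell, made of 16. These included *his-31* with *his-32*, *his-1* with *his-2*, *dpy-10* with *dpy-2*, and *D1014.6* with *D1014.7*. Exons of another gene overlapped 28 of the genes that rose and 70 of those that fell, and reads in such overlaps may belong to either gene.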

How the data were processed

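RNA was measured by sequencing in whole L4 worms of 4 genotypes, in 2 libraries per genotype. The deposited values come from reads that the authors cleaned with FASTX and cutadapt, stripped of tRNA and rRNA with Bowtie, aligned to WS250 with TopHat2 and counted with Cufflinks, as estimated counts per gene. Of values above 0, 52.3% are whole numbers. Counts were rounded, and 93 landmark entries (0.220% to 0.278% of reads) were left out. Library totals ran from 16363189 to 26187811 reads.

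The filter of 20 reads in 1 or more of the libraries was followed by edgeR 4.0.16 (R 4.3.3), in which library sizes were scaled by TMM. The model held all 8 libraries with a mean for each genotype, and genes were called by its quasi-likelihood F test at a 5% false discovery rate after Benjamini-Hochberg adjustment. The standard error was the absolute log2 fold change divided by the square root of F. On simulated counts of 13888 genes with 200 changed, 76% of 4-fold and 31% of 2-fold changes were found, and 8.55% of calls were false. Gene positions, names and windows came from WBcel235 (Ensembl release 115). Motifs were counted as exact letters. Python 3.11.15 and matplotlib 3.10.9 were used for plots.

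The comparison, lists and genes were chosen with earlier results of these data known. Genes were named by rule: among called genes with 20 or more reads in both libraries of the higher genotype and a like sign for either replicate number, the 8 largest changes each way, up to 4 called members per list and direction by smallest p, defining members of each list, the 4 genes with most reads against 0, the 6 called genes with the largest difference from *set-9*, and *set-9*, *tiar-2*, *vit-1*, *bli-2*, *Y43D4A.5* and *wrt-2*. Some were left out for space. The genes *tbb-6*, *D1014.7*, *fat-6*, *clec-17* and *vha-8*, and further called members of lists, fall outside this rule and were chosen after their values were seen. The landmark alternative, the likelihood ratio test and the secretory lists were chosen after seeing the data. Alternatives were DESeq2 1.42.0 (size factors and Wald test), upper quartile scaling, edgeR's exact test, other filters, a replicate block, a fit of the compared libraries alone, a 2-fold minimum and each library left out.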

Additional observations from a re-analysis of the deposited data

Results flagged for a closer look

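The change in *set-26* differed from that in *set-9* for several genes and lists, tested directly as *set-26* against *set-9* in edgeR (quasi-likelihood test, 5% false discovery rate). Both changes are measured against the same N2 libraries. The largest such differences among called genes were *ZK822.1* at −8.32 and *ZC308.4* at −8.15 on the log2 scale, each with 0 reads in both *set-26* libraries, so that these fitted values depend on the prior count. Their levels were 1.46 and 1.19 CPM for *ZK822.1* and 2.32 and 1.53 CPM for *ZC308.4* in N2. On the higher side stood *cyp-14A4* at 3.42, *clc-11* at 3.34, *B0205.13* at 3.06 and *Y41C4A.11* at 2.77. The levels of *B0205.13* were 5.32 and 5.33 CPM in N2, 29.8 and 63.3 CPM in *set-26*, and 5.89 and 5.21 CPM in *set-9*. For *Y41C4A.11* they were 1.97 and 2.21 CPM in N2, 10.5 and 9.03 CPM in *set-26*, and 1.78 and 1.04 CPM in *set-9*.

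Among the lists, *set-26* was lower than *set-9* in 7 V-ATPase subunits, in 6 lysosomal enzymes and in 3 genes of the respiratory chain. It was higher in 6 detoxification genes, in 4 C-type lectins and in 3 *col* genes. When only the *set-26* and *set-9* libraries were fitted, edgeR called 0 genes higher and 0 lower in this contrast.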

How the results depend on the processing

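The 143 genes that rose and 208 that fell in *set-26* became 302 and 536 in DESeq2's Wald test, 378 and 537 in edgeR's exact test, 407 and 570 in its likelihood ratio test, 355 and 634 with no filter, and 264 and 457 with replicate numbers fitted as a block, which included all 351 calls. They became 11 and 4 with the compared libraries fitted alone, and 102 and 117 with a 2-fold minimum. With a library left out, 16 to 102 rose and 4 to 143 fell. The contrast of *set-26* with *set-9* (65 higher, 37 lower) gave 59 and 24 with upper quartile scaling, 265 and 194 in the Wald test, 408 and 167 in the exact test, 470 and 192 in the likelihood ratio test, 379 and 220 with no filter, 143 and 165 with the block, 11 lower with the 2-fold minimum, and 0 and 0 with the libraries fitted alone, where edgeR gave 1918 genes at an unadjusted p under 0.05. With a library left out it gave 0 to 10 and 0 to 3. Where not stated, these 4 totals stayed within 1.5 times. Of 39 counts of called list members, 27 moved further than that in the Wald test, 23 in the exact test, 26 in the likelihood ratio test, 24 with no filter, 18 with the block, 11 with 20 reads in every library, 8 with upper quartile scaling, 1 with DESeq2's size factors, 13 with the 2-fold minimum, 37 with the libraries fitted alone and 16 to 36 with a library left out. The cause of these shifts was not tested, except that leaving out a library lowers the replicate number. Deviations of same-numbered libraries correlated at r = 0.223 between N2 and *set-26* and 0.351 between *set-9* and *set-26*, and nothing in the labels or methods describes a pairing. No named gene reversed direction under any alternative, which for called genes with a library left out followed from groups that did not overlap.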
